A study of Mus musculus with 12 samples.

Results

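The genes described here encode the subunits, activators, inhibitor and assembly chaperones of the mouse proteasome. They were chosen by symbol, as every gene whose probe set names it alone and whose symbol begins with Psma, Psmb, Psmc, Psmd, Psme, Psmf or Psmg followed by a digit. The rule found 49 genes of the 18193 genes with a probe set of their own, carried by 103 probe sets. By class there were 8 genes of the 20S alpha ring, 8 of the 20S beta ring, 4 immune genes (Psmb8, Psmb9, Psmb10 and Psme1), 6 ATPase genes of the 19S particle, 14 non-ATPase genes of the 19S particle and 7 genes of other activators, the inhibitor and the assembly chaperones. The other 2 members, Psmc3ip and Psme3ip1, match the symbol rule but encode binding partners of subunits, so they were kept apart from the classes. Psme2, the partner of Psme1, shared its probe set with Psme2b and was therefore no member, and its values are given beside those of Psme1.

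The proteasome is the protease that degrades proteins marked with ubiquitin. Its 20S core is a barrel of alpha and beta rings, and the beta subunits Psmb6, Psmb7 and Psmb5 hold the caspase-like, trypsin-like and chymotrypsin-like active sites. In cells exposed to interferon gamma, and in many cells of blood origin without it, Psmb9, Psmb10 and Psmb8 are built in instead of Psmb6, Psmb7 and Psmb5, and the resulting immunoproteasome yields many of the peptides shown on MHC class I molecules. The 19S particle binds the ubiquitin chain, removes it and unfolds the substrate, while PA28, made of Psme1 and Psme2, is an alternative cap of the core.

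RNA was measured on 12 mouse expression arrays in 4 groups of 3. The groups were kidney RNA bought from Ambion at an input of 10 ng, and universal mouse reference RNA from a supplier the labels spell Strategene, a pool of RNA from cell lines, at 0.3, 3 and 10 ng. The labels give no strain, age, sex or number of animals for the kidney RNA and no list of the lines in the pool, and all sample titles carry the code pRS, whose meaning they do not give. Whether the 3 arrays of a group stand for separate animals, cultures or amplification reactions is not stated, so every p-value measures only the spread between these arrays.

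Each value is a linear signal on a scale where the 2% trimmed mean of every array is 500, and signals below 33.655 were taken as background, a level under which 95% of the values of 27 Bacillus control probe sets fell. The share of probe sets below background was 33.2% to 42.4% per array, and the number of arrays limits the precision. Fold changes are on the scale of log2(signal + 3.9), which understates the change of dim genes. Kidney identity was clear, since 9 of 9 tested tubule and podocyte markers were higher in kidney RNA at 10 ng than in reference RNA at 10 ng. Of the 10 measured ones, 5 lay below background on every array of the reference at 10 ng. All 7 tested cell division markers were lower in kidney RNA. Kidney and reference RNA were both mixtures of cells, and in such bulk RNA fewer cells of a type and less RNA per cell cannot be told apart.

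Of the 49 members, 47 passed the filter on low signals, which kept a probe set when the highest of its 4 group means was above the 40th percentile of that quantity. The 2 that did not were Psma8, a testis form of an alpha subunit, with signals of 1.2 to 16.4 over all 12 arrays, and Psmb11, the catalytic subunit of the thymus proteasome, with signals of 1.5 to 31.6. Both lay below background on every array. The 47 others were bright, with a median group mean of 2023 in kidney RNA, and in reference RNA 1943 (0.3 ng), 1839 (3 ng) and 1816 (10 ng), against 425, 388, 415 and 436 over all 12767 tested genes in the same order of groups.

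Promoter sequence is shown for 5 members, the immune genes Psmb9, Psmb8 and Psme1 and the constitutive genes Psmb6 and Psmb5, which Psmb9 and Psmb8 replace. The pair Psmb10 and Psmb7 is not shown. The sequences are RefSeq promoter windows of GRCm38.p6, each 300 bases long, 5′ to 3′ on the strand of the gene, with 250 bases before the start of the gene and 50 from it on. Psmb9 and the peptide transporter gene Tap1 are divergent neighbours on chromosome 17. Psmb9 spans 34182030 to 34187330 on the minus strand and Tap1 spans 34187556 to 34197225 on the plus strand. Psmb8 (34198195 to 34201454) follows 969 bases after the end of Tap1, and Tap2 lies at 34204479 to 34216321. The capitals in the Psmb9 window mark the 225 bases between the starts of Psmb9 and Tap1, which are the upstream sequence of both genes.
Psmb9, chr17:34187281-34187580, minus strand: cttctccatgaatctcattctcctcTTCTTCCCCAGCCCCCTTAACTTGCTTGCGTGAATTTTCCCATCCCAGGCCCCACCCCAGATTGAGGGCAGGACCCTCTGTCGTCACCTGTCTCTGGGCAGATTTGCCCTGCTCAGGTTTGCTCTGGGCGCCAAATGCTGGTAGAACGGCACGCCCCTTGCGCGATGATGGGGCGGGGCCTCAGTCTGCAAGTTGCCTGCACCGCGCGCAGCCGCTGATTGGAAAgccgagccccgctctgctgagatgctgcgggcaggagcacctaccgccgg
The other 4 windows were searched on both strands for the core of the interferon-stimulated response element (GAAA, any 2 bases, and GAAA again) and for TGACNNNGC, the core of the antioxidant response element, and capitals mark their matches. The Psmb8 window held neither, and the Psme1 match lies 9 to 18 bases after the start, with the motif on the opposite strand.
Psmb8, chr17:34197945-34198244, plus strand: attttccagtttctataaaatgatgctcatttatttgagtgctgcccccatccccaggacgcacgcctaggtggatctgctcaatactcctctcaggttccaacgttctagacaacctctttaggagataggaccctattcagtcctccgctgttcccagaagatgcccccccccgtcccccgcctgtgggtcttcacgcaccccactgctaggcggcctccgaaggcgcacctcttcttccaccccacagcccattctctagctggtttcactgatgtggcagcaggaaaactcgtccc
Psme1, chr14:55578244-55578543, plus strand: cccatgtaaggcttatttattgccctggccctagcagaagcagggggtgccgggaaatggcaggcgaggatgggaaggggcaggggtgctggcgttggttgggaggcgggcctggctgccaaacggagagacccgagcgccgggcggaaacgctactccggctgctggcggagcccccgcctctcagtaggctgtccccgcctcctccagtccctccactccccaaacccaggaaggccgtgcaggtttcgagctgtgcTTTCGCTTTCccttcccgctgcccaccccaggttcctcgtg
Psmb6, chr11:70525107-70525406, plus strand: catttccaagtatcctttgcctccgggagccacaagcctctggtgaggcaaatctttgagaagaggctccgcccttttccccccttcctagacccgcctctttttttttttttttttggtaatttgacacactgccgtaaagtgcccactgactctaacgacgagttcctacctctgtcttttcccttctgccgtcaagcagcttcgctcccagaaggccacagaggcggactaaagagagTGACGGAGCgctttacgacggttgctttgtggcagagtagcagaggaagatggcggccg
Psmb5, chr14:54617946-54618245, minus strand: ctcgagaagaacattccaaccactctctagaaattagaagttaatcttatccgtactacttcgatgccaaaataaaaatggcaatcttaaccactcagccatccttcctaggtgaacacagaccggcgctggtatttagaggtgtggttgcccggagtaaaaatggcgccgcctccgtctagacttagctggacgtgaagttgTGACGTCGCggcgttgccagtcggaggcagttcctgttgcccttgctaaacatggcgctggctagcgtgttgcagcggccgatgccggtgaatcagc

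A promoter window was present for 41 of the 49 members, in 44 windows. The interferon-stimulated core was found in 5 of the 44 (11.4%), against 3.44% of all 32851 windows. The genes holding it were Psme1, Psmb3, Psmd4, Psmd9 and Psmg4, and of the 4 immune genes only Psme1 had it. TGACNNNGC was found in 6 of the 44 (13.6%), against 12.4% of all windows, among them Psmb5 and Psmb6, where it lay 47 to 39 and 9 to 1 bases before the start. CCAAT was found in 16 of the 44 (36.4%), against 37.4% of all windows. A match in a window of this length describes its letters and is not a known site.

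The first question was how the proteasome genes of a whole organ differ from those of a pool of cell lines at equal input. The 3 immune catalytic subunits were higher in kidney RNA at 10 ng, by 2.0-fold to 3.49-fold, while none of the 14 tested constitutive 20S genes was called on the probe set that stood for it. That 0 depends on the probe set and the setting. Further probe sets of Psma1, Psma3, Psma5, Psma6 and Psma7 were called lower. Those of Psma1 were dim and passed the filter on low signals only through the reference at 3 ng. When a trend in the prior variance was fitted, 1 of the 14 was called higher and 6 lower. There were 3 lower after quantile normalization, 4 lower when the probe sets of a gene were averaged and 1 higher after centring arrays on their medians. In all, 11 of the 47 tested members (23.4%) were called by limma at a Benjamini-Hochberg adjusted p under 0.05, 4 higher and 7 lower, against 62.8% of all 12767 tested genes (27.1% higher, 35.7% lower). The share of called members was thus well under that of all genes. Their median absolute log2 fold change was 0.26, against 0.91 over all tested genes, and 7 of 47 members (14.9%) differed by at least 2-fold, against 46.6% of genes. At an unadjusted p under 0.05 there were 17 members, against 67.3% of genes.

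Psmb9, which takes the place of Psmb6, had signals of 2299.8, 2122.6 and 2190.3 in kidney RNA, against 525.3, 655.0 and 721.9 in reference RNA at 10 ng. Every kidney array lay above every reference array. The difference was 3.49-fold, a log2 fold change of 1.80 (SE 0.16, 95% interval 1.41 to 2.20, adjusted p = 0.00034 by limma). The same kidney arrays also lay above all arrays of the reference at 0.3 ng (885.2, 547.9 and 674.4) and at 3 ng (564.6, 851.1 and 732.1), so the gap did not rest on 1 input.

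Psmb8, which takes the place of Psmb5, had signals of 1590.4, 1557.3 and 1539.2 in kidney RNA, against 469.1, 634.7 and 420.0 in reference RNA at 10 ng. The log2 fold change was 1.64 (SE 0.18, 95% interval 1.18 to 2.09, adjusted p = 0.000819 by limma), a 3.11-fold difference. The groups did not overlap, and the kidney arrays were again above the reference at 0.3 ng (809.7, 598.2 and 638.7) and 3 ng (463.6, 623.4 and 555.2). A second Psmb8 probe set lay under the filter, with a mean of 18.2 in kidney RNA and 29.4 in reference RNA at 10 ng. The call on Psmb8 was lost when all probe sets of a gene were averaged, this dim one included (log2 fold change 0.56, adjusted p = 0.23).

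Psmb10, which takes the place of Psmb7, showed the smallest difference of the 3. Its signals were 2594.0, 2735.0 and 2837.6 in kidney RNA, against 1314.0, 1472.8 and 1291.1 in reference RNA at 10 ng, with no overlap. The log2 fold change was 1.0 (SE 0.12, 95% interval 0.70 to 1.31, adjusted p = 0.00118 by limma). At 0.3 ng the reference arrays spread more widely (1668.6, 704.4 and 1589.3), and against them Psmb10 was not called (log2 fold change 1.14, adjusted p = 0.0713), while Psmb9 and Psmb8 were (1.67 and 1.2, adjusted p = 0.00595 and 0.0114). Comparisons with the 0.3 ng arrays change tissue and input together.

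Psme1, the PA28 alpha subunit, had signals of 5249.3, 5036.4 and 5055.9 in kidney RNA, against 4101.8, 4338.7 and 3879.1 in reference RNA at 10 ng. The groups did not overlap, but the log2 fold change of 0.32 (95% interval 0.03 to 0.61) did not pass the adjusted threshold (adjusted p = 0.0585 by limma). It passed with each array centred on its median (log2 fold change 0.56, adjusted p = 0.0128). The probe set shared by Psme2, the PA28 beta subunit, and Psme2b had signals of 3875.5, 4071.1 and 3851.8 in kidney RNA, against 3618.3, 3947.9 and 3342.5 in reference RNA at 10 ng. These overlap, and the log2 fold change was 0.12 (95% interval −0.19 to 0.42, adjusted p = 0.453).

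**Figure D1:**
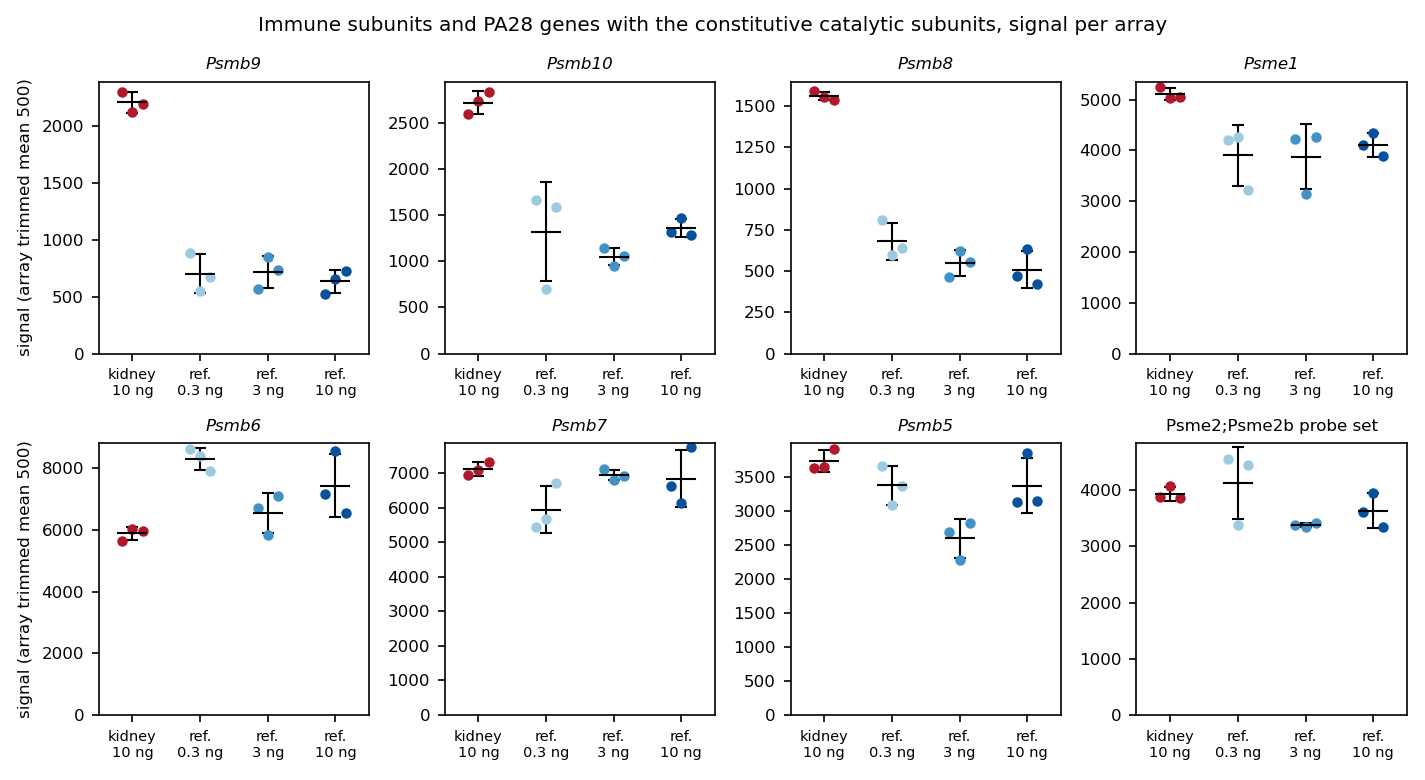
Signal of each array (points) with the mean and SD of the 3 arrays of a group (bars), on a linear axis from 0, for kidney RNA at 10 ng and reference RNA at 0.3, 3 and 10 ng. The top row shows Psmb9, Psmb10, Psmb8 and Psme1 and the bottom row Psmb6, Psmb7, Psmb5 and the probe set shared by Psme2 and Psme2b; the kidney arrays stand above every reference array in all panels of the top row.

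The constitutive catalytic subunits were not called at equal input. Psmb6 had signals of 5640.2, 6041.2 and 5960.3 in kidney RNA, against 7174.2, 8544.5 and 6546.2 in reference RNA at 10 ng. These did not overlap, with kidney lower, but the log2 fold change of −0.33 (95% interval −0.69 to 0.03) was not called (adjusted p = 0.1). Psmb7 had 6952.2, 7081.6 and 7331.1 in kidney RNA, against 6643.4, 6133.2 and 7752.1, and a log2 fold change of 0.06 (95% interval −0.28 to 0.40, adjusted p = 0.707). Psmb5 had 3629.2, 3642.5 and 3917.8 in kidney RNA, against 3125.8, 3848.1 and 3148.4, and a log2 fold change of 0.15 (95% interval −0.19 to 0.49, adjusted p = 0.385). For Psmb7 and Psmb5 the groups overlapped. Against the reference at 3 ng, Psmb5 was called higher in kidney RNA with no overlap (log2 fold change 0.53, 95% interval 0.16 to 0.89, adjusted p = 0.0261 by limma), and against that at 0.3 ng it was not (0.15, adjusted p = 0.615).

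Whether an immune subunit and the subunit it replaces changed unequally was tested on the difference of their log2 signals within an array. Signals of different probe sets are not levels on a common scale, so only the change of this difference between groups is read. For Psmb9 and Psmb6 it was −1.41 ± 0.11 in kidney RNA and −3.54 ± 0.32 in reference RNA at 10 ng (SD, n = 3 each), a shift of 2.13. For Psmb8 and Psmb5 it was −1.25 ± 0.08 in kidney RNA and −2.74 ± 0.15 in reference RNA, a shift of 1.49, and for Psmb10 and Psmb7 −1.39 ± 0.03 and −2.32 ± 0.26, a shift of 0.94. In all 3 pairs every kidney array lay above every reference array. The two-sided exact permutation p was 0.1 for each pair (0.1 after Benjamini-Hochberg adjustment over the 3), which is the smallest that 3 against 3 arrays allow, so this test could not pass a threshold of 0.05.

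In the alpha ring, which gates entry to the core, none of the 7 tested genes was called on the probe set that stood for it, with log2 fold changes of −0.30 (Psma2) to 0.31 (Psma4) and a median of −0.18, against a median of −0.19 over all tested genes. Psma2 had 3352.4, 3022.0 and 3080.2 in kidney RNA, against 3864.9, 4033.6 and 3760.0 in reference RNA at 10 ng, with no overlap (adjusted p = 0.0694 by limma). Psma4 had 2127.7, 2174.5 and 2241.7 in kidney RNA, against 1606.6, 2019.4 and 1666.9 (adjusted p = 0.1). Psma6 and Psma5 had the smallest differences, with log2 fold changes of −0.05 and −0.09. The 95% intervals of the 7 genes lay within −0.59 and 0.66. A second bright probe set of Psma5 was called lower in kidney RNA, with 2017.3, 2123.7 and 1970.5 in kidney RNA, against 2833.5, 3185.8 and 2879.8 in reference RNA (−0.54, adjusted p = 0.0109 by limma). A second one of Psma7 had 2214.0, 2058.8 and 2260.0 in kidney RNA, against 3334.7, 3580.2 and 3022.5, and was called lower as well (−0.60, adjusted p = 0.00929).

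The 7 tested constitutive beta genes were not called either. Their log2 fold changes ran from −0.39 (Psmb2) to 0.15 (Psmb5), with a median of −0.17, and their intervals lay within −0.75 and 0.49. Psmb2 had 2842.8, 2627.9 and 2679.0 in kidney RNA, against 3311.6, 4141.2 and 3301.8 in reference RNA at 10 ng, with no overlap and an adjusted p of 0.0584 by limma. Psmb4, a structural subunit, had 6281.0, 6203.0 and 6163.2 in kidney RNA, against 5704.0, 6310.2 and 5859.7, and a log2 fold change of 0.06. The sign of both 20S medians depends on the scaling: after centring arrays on their medians they were 0.07 for both rings, while the median of all tested probe sets was −0.10 in place of −0.34.

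**Figure D2:**
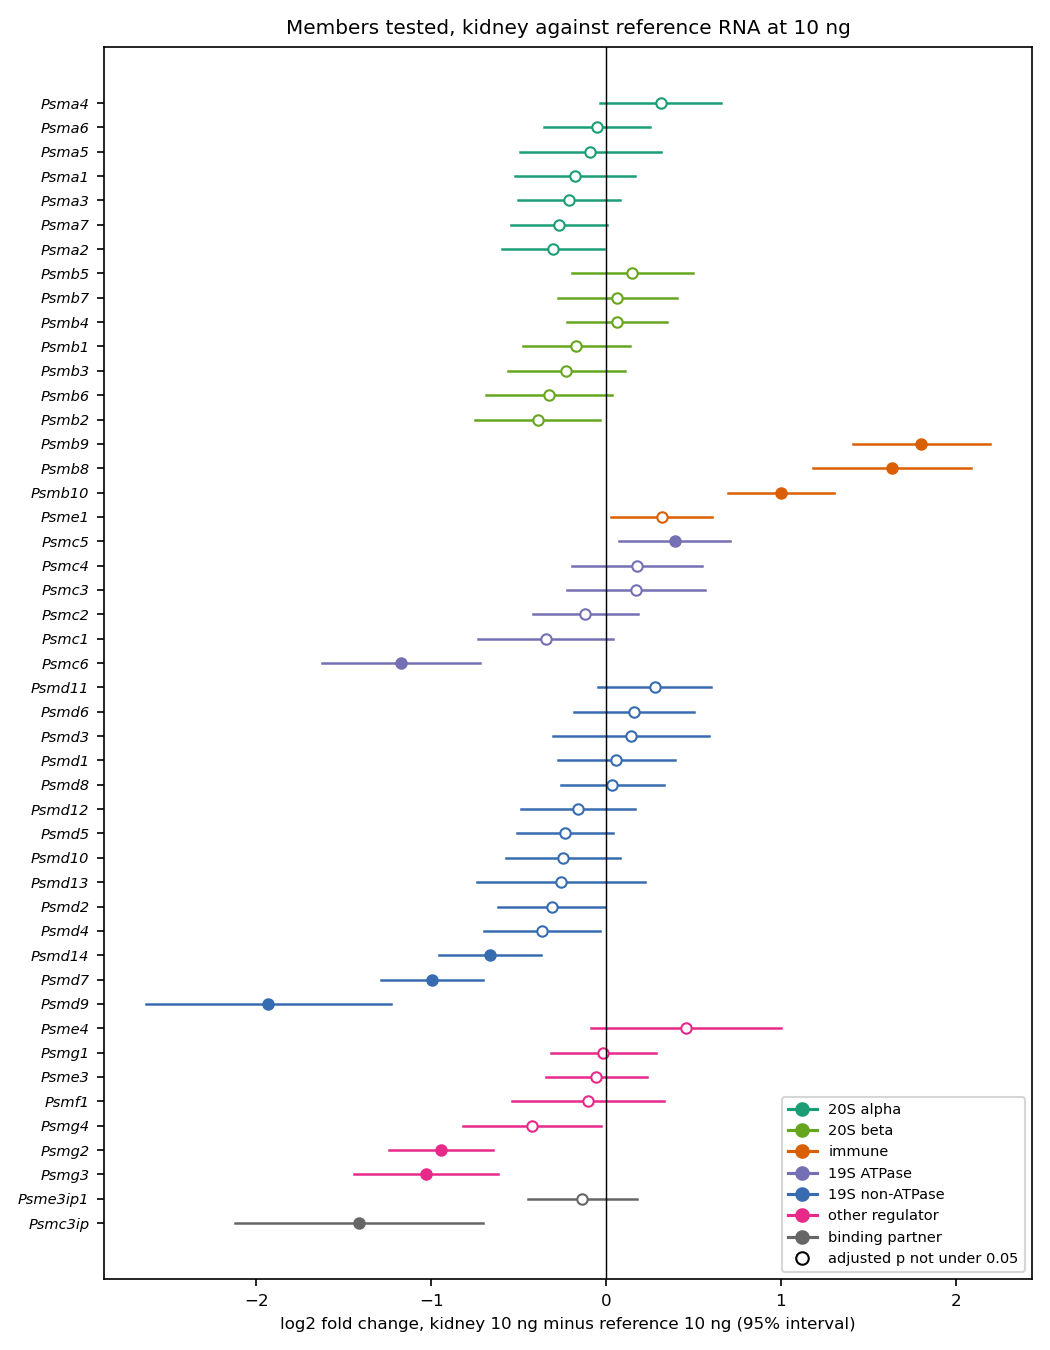
Log2 fold change of kidney RNA minus reference RNA, both at 10 ng (horizontal axis), with its 95% interval for each of the 47 tested members, grouped and coloured by class; filled points passed the adjusted threshold and open points did not. Psmb9, Psmb8 and Psmb10 stand at 1.80, 1.64 and 1.0 to the right, the 14 constitutive 20S genes lie between −0.39 and 0.31, and Psmd9 lies farthest to the left at −1.93.

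In the ATPase ring, which unfolds substrates, 1 of 6 genes was called higher and 1 lower, against 27.1% and 35.7% of all tested genes. Psmc5 had 905.6, 1014.3 and 966.7 in kidney RNA, against 789.1, 740.4 and 670.6 in reference RNA at 10 ng, with no overlap. Its log2 fold change of 0.39 (95% interval 0.07 to 0.71) passed narrowly (adjusted p = 0.0416 by limma), and the call was lost without any 1 of the 6 arrays (adjusted p 0.0611 to 0.114), when dim probe sets were kept (0.132) and in a joint fit of all 12 arrays (0.308). Psmc6 had 1896.8, 1597.8 and 1807.2 in kidney RNA, against 3865.7, 4879.7 and 3334.9, a log2 fold change of −1.17 (95% interval −1.62 to −0.72, adjusted p = 0.00285). The groups were far apart on this probe set, but the others for Psmc6 went the opposite way. Psmc2 and Psmc3 had the smallest differences, with log2 fold changes of −0.12 and 0.17.

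Among the 14 non-ATPase genes of the 19S particle, 3 were called lower and 0 higher, against 35.7% and 27.1% of all tested genes. Psmd14, the enzyme that cuts the ubiquitin chain off the substrate, had 1971.1, 2043.3 and 2053.3 in kidney RNA, against 3135.2, 3438.0 and 3067.8 in reference RNA at 10 ng. It was 1.59-fold lower in kidney RNA with no overlap (log2 fold change −0.67, 95% interval −0.96 to −0.37, adjusted p = 0.0046 by limma). Against the reference at 3 ng it was not called (−0.20, 95% interval −0.51 to 0.10, adjusted p = 0.202), though the arrays did not overlap, and against that at 0.3 ng it was called lower (−0.72, adjusted p = 0.0451). Psmd7, the subunit that pairs with Psmd14 in the lid, had 201.9, 201.9 and 183.4 in kidney RNA, against 404.4, 379.1 and 398.5, and was 1.99-fold lower (log2 fold change −1.0, 95% interval −1.29 to −0.71, adjusted p = 0.000995). A second tested Psmd7 probe set was lower as well (70.1 in kidney RNA and 118 in reference RNA, adjusted p = 0.0319).

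Psmd9, a chaperone for assembly of the ATPase ring, had the largest fall of all tested members on the probe set that stood for it. It measured 940.9, 1202.8 and 598.8 in kidney RNA, against 3746.5, 3502.6 and 2899.3 in reference RNA at 10 ng, a log2 fold change of −1.93 (95% interval −2.63 to −1.23, adjusted p = 0.00226 by limma). The other 11 genes of the class were not called on the probe set that stood for each. Their log2 fold changes were −0.37 (Psmd4, a ubiquitin receptor) to 0.28 (Psmd11, a lid subunit). Further probe sets of Psmd6 and Psmd13 were called, as given below. Psmd8 and Psmd1 had the smallest values, at 0.04 and 0.06. Of the remaining base chaperones, Psmd5 and Psmd10 had log2 fold changes of −0.23 and −0.25 (adjusted p = 0.119 and 0.155).

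Of the 4 assembly chaperones of the 20S core, 2 were called lower, against 35.7% of all tested genes. Psmg2, which pairs with Psmg1 to build the alpha ring, had 800.5, 721.9 and 717.6 in kidney RNA, against 1498.9, 1404.4 and 1412.1 in reference RNA at 10 ng, and was 1.92-fold lower (log2 fold change −0.94, 95% interval −1.24 to −0.65, adjusted p = 0.0013 by limma). Psmg3 had 267.8, 326.8 and 352.8 in kidney RNA, against 587.5, 735.0 and 618.8, and was 2.04-fold lower (−1.03, 95% interval −1.44 to −0.62, adjusted p = 0.00334). Its partner Psmg4 did not overlap between the groups but was not called (−0.42, adjusted p = 0.064). Psmg1, the partner of Psmg2, had 763.6, 765.2 and 704.9 in kidney RNA, against 747.6, 710.4 and 801.1, and a log2 fold change of −0.02 (95% interval −0.31 to 0.28).

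The other regulators were not called on the probe sets that stood for them. Psme3, which forms a nuclear cap, had a log2 fold change of −0.06 (95% interval −0.35 to 0.23) and Psmf1, an inhibitor of the core, −0.10 (−0.54 to 0.33). Psme4, which encodes the activator PA200, had 1710.9, 1923.7 and 2175.6 in kidney RNA, against 1433.7, 1782.3 and 1083.8 in reference RNA at 10 ng (0.46, adjusted p = 0.123 by limma). Of the binding partners, Psmc3ip, which acts in meiotic recombination, was called lower in kidney RNA. It had 800.6, 524.2 and 441.9 in kidney RNA, against 1740.2, 1752.2 and 1168.0 (−1.41, 95% interval −2.12 to −0.71, adjusted p = 0.00768), and a second probe set of it was lower too (168 and 443, adjusted p = 0.00218).

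Groups of 3 arrays did not overlap in 27 of the 47 members (57.4%), 7 with kidney higher and 20 with kidney lower, against 73.3% of all tested genes. The kidney arrays were taken against the reference at 3 ng as well, with 5 of the 47 members called higher and 6 lower, against 57.5% of all tested genes (26.4% higher, 31.2% lower). Against the reference at 0.3 ng, 2 were called higher and 4 lower, against 37.3% of all tested genes (20.7% higher, 16.6% lower). Of the 11 members called at equal input, Psmb9, Psmb8, Psmc6, Psmd9 and Psmg2 were called in the same direction against all 3 inputs. Of the same 11, those not called against the reference at 0.3 ng were Psmb10, Psmc5, Psmd7, Psmg3 and Psmc3ip, and Psmc3ip was not called against that at 3 ng either (−1.20, adjusted p = 0.0528) and had the opposite sign at 0.3 ng (0.42, adjusted p = 0.551). These share the kidney arrays with the comparison at equal input and add a difference of input, and they are given only as values.

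Several members carried more than 1 probe set, and 23 of the 49 had at least 2 that passed the filter. In 9 of these, 2 or more probe sets were called in the same direction between kidney and reference RNA at 10 ng, and 2 of the 9, Psmc6 and Psme4, had another called the opposite way. For Psmc6 the second brightest probe set had 2002.3, 1795.5 and 2110.7 in kidney RNA, against 1232.7, 894.1 and 1109.1 in reference RNA at 10 ng, a log2 fold change of 0.88 (adjusted p = 0.00613 by limma) where the brightest gave −1.17. The dimmest was also higher in kidney RNA (1.19, adjusted p = 0.0217), and the mean over all Psmc6 probe sets was 0.30 (adjusted p = 0.162). The direction of Psmc6 therefore depends on the probe set, and which of them reports the main transcript was not tested.

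For Psme4, 2 probe sets were called higher in kidney RNA (0.66 and 0.69, adjusted p = 0.00456 and 0.0424 by limma) and a dim one lower (−1.43, adjusted p = 0.0129). For Psmf1 the probe set that stood for it gave −0.10, while another was called higher at 0.90 (adjusted p = 0.0242). A dim one had 129.8, 146.1 and 83.2 in kidney RNA, against 31.9, 20.4 and 22.0 in reference RNA. All 3 of these reference signals, at 10 ng, were below background, so it was at least 3.56-fold higher in kidney RNA at equal input (adjusted p = 0.00136). At 3 ng the same reference RNA gave 12.2, 249.8 and 97.2, which overlap the kidney signals, and at 0.3 ng 12.1, 4.1 and 11.7. The fall of Psmd9 was not seen on its second probe set, which measured 406 in kidney RNA and 407 in reference RNA (log2 fold change −0.03, adjusted p = 0.93), while its dimmest fell by 0.59 (adjusted p = 0.0497). For Psma6 both bright probe sets were not called and both dimmer ones were called lower (−1.12 and −1.91, adjusted p = 0.00536 and 0.00889). Of the other probe sets of Psma1, 2 dim ones were called lower with all 3 kidney signals below background (at least 1.52-fold and 2.07-fold lower, adjusted p = 0.000253 and 0.00817). Both passed the filter only through the reference mean at 3 ng (101 and 106). In the reference at 0.3 ng their means were also below background (4.63 and 5.63). A dim probe set of Psma3 was called lower too (−1.02, adjusted p = 0.0345). For Psmd6, a lid subunit, the brighter of 2 gave 0.16 and the other was called higher at 0.64. For Psmd13 the probe set that stood for it gave −0.26 and another was called lower (−0.70, adjusted p = 0.0474). Among the called members with further tested probe sets, Psmc3ip was called lower on both of its own. Psmd7 and Psmg2 were each called lower on 2 of 3, the third one being negative as well.

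**Figure D3:**
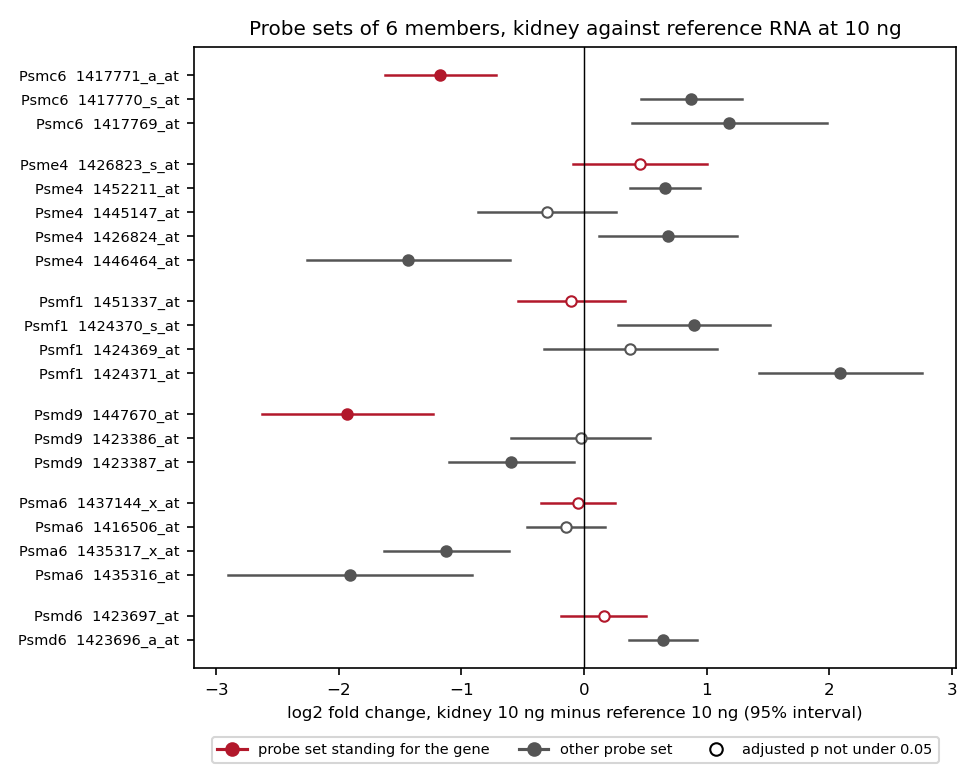
Log2 fold change of kidney RNA minus reference RNA at 10 ng with its 95% interval (horizontal axis) for each tested probe set of 6 members, from the brightest in reference RNA at the top to the dimmest. Filled points passed the adjusted threshold; for Psmc6 the brightest probe set stands at −1.17 and the other ones at 0.88 and 1.19. The Psmf1 point at 2.09 is a difference from reference signals below background, given above as a bound.

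Genes that work beside the immunoproteasome were set beside it from a list of 15 genes of the interferon response and of antigen processing, of which 13 had a probe set of their own. In kidney RNA 6 of the 13 were called higher and 1 lower, against 27.1% higher and 35.7% lower of all tested genes. The median log2 fold change of the 13 was 0.66, against −0.19 over all tested genes. Ubd, which encodes the ubiquitin-like modifier FAT10 that targets proteins to the proteasome, had 6347.6, 6686.5 and 6458.2 in kidney RNA, against 10.6, 4.9 and 22.6 in reference RNA at 10 ng. All 3 reference signals were below background, so Ubd was at least 193-fold higher in kidney RNA (adjusted p = 3.94e-05 by limma).

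Irf8, Ube2l6, Irf9, Nlrc5 and Tap2 were the others called higher, with log2 fold changes of 2.25, 1.54, 1.03, 0.85 and 0.66. Tap1, the divergent neighbour of Psmb9, had 472.1, 548.0 and 550.2 in kidney RNA, against 255.8, 464.8 and 325.3 in reference RNA at 10 ng. These did not overlap, but its log2 fold change of 0.62 (95% interval 0.03 to 1.22) was not called (adjusted p = 0.0685 by limma) against 1.80 for Psmb9. Usp18, which removes the modifier ISG15, was called lower (−0.92, adjusted p = 0.00524). The interferon-induced activator Irf1, the class I light chain B2m and Tapbp, which encodes tapasin, were not called (0.17, −0.11 and −0.09). The list thus did not move as 1 block.

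Leukocytes carry the immunoproteasome, so their markers were read in the same arrays. Of 14 markers, 6 were called higher and 6 lower in kidney RNA, against 27.1% higher and 35.7% lower of all tested genes. The median log2 fold change of the 14 was 0.19, against −0.19 over all tested genes. The pan-leukocyte gene Ptprc had 621.9, 645.3 and 763.7 in kidney RNA, against 1976.3, 1718.0 and 1865.5 in reference RNA at 10 ng (log2 fold change −1.45, adjusted p = 0.000483 by limma). The reference gave 1481.7, 2117.8 and 1834.0 at 3 ng, but 535.5, 594.8 and 718.0 at 0.3 ng, which overlap the kidney signals. Cd74, the invariant chain of MHC class II, had 11434, 12165.9 and 12913.6 in kidney RNA, against 1707.5, 2179.5 and 1801.9 in reference RNA at 10 ng (2.69). The complement genes C1qa and C1qc were below background on every reference array. All 8 endothelial markers were higher in kidney RNA, with summed signals of 8430 to 8927 per kidney array and 1367 to 1400 per reference array, and Emcn and Tie1 below background on every reference array. The part of these cells in the difference of the immune subunits was not tested.

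Outside the symbol rule, 20 of 28 listed genes of the ubiquitin-proteasome pathway had a probe set of their own and 18 were tested. In kidney RNA at 10 ng, 2 were called higher and 4 lower, against 27.1% higher and 35.7% lower of all tested genes. The median log2 fold change of the 18 was −0.29, against −0.19 over all tested genes. Uchl5, a deubiquitinase of the 19S particle, had 842.9, 712.3 and 794.7 in kidney RNA, against 1526.8, 1593.6 and 1600.6 in reference RNA (−1.01, adjusted p = 0.00121 by limma). Sem1, a small lid subunit, was lower as well (5002 ± 242 in kidney RNA and 7928 ± 652 in reference RNA, −0.66, adjusted p = 0.00626). Ubqln2, which carries substrates to the proteasome, was lower (−0.48) and its relative Ubqln1 higher (0.99), and Ube2d3 (−0.37) and Skp1 (0.34, adjusted p = 0.0499) passed narrowly. Pomp, which matures the 20S core, and Nfe2l1, the transcription factor that drives proteasome genes when the proteasome is inhibited, were not called (−0.29 and −0.05).

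The second question was what a smaller input of the same reference RNA does to these genes. At 3 ng against 10 ng, limma called 0 of the 47 members and 0 of 12767 genes (0%), with 3 members and 8.28% of genes at an unadjusted p under 0.05. The members' log2 fold changes were −0.46 (Psmd14) to 0.28, with a median of −0.09, against −0.05 over all tested genes, and 0 members differed by 2-fold, against 4.35% of genes. Psmd14 had 2376.4, 2297.1 and 2315.9 at 3 ng, against 3135.2, 3438.0 and 3067.8 at 10 ng, with no overlap (95% interval −0.78 to −0.14, adjusted p = 0.408). The members with the next lowest values were Psmc1 (−0.46), Psmg3 (−0.43) and Psmb5 (−0.38), and 10 of 47 members did not overlap, against 17.5% of genes.

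At 0.3 ng against 10 ng, limma again called 0 of the 47 members, against 0.548% of all genes (70 of 12767), and 3 members had an unadjusted p under 0.05, against 13.2% of genes. The inputs did not overlap in 11 of 47 members, against 25.1% of genes. Psmc3ip had the largest difference, with 438.3, 760.1 and 231.2 at 0.3 ng, against 1740.2, 1752.2 and 1168.0 at 10 ng (log2 fold change −1.83, 95% interval −3.02 to −0.65, adjusted p = 0.171 by limma), and was the only member to differ by 2-fold, against 19.1% of genes. Psmc2, an ATPase, had 1298.7, 2080.2 and 2150.4 at 0.3 ng, against 3231.0, 3082.0 and 3243.3 (−0.82, 95% interval −1.52 to −0.13, adjusted p = 0.26). Both sets of arrays did not overlap. Psmd3, a lid subunit, was next with −0.71 but overlapped, since its 984.4 on 1 array at 0.3 ng stood above all 10 ng arrays and its 302.4 and 232.5 on the others below them. Psmg3 had 360.3, 391.7 and 433.5 at 0.3 ng, against 587.5, 735.0 and 618.8 (−0.70, adjusted p = 0.24).

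By class, the medians at 0.3 ng against 10 ng were −0.17 for the alpha ring, 0.00 for the beta ring, 0.02 for the immune genes, −0.35 for the ATPase ring, −0.05 for the non-ATPase genes and −0.05 for the other regulators, against −0.20 over all tested genes. The immune genes had log2 fold changes of −0.14 to 0.43 and overlapped between the inputs, and their intervals reached from −1.11 to 1.11 and do not exclude a 2-fold change. After centring arrays on their medians, the median of all tested probe sets was 0.21 in place of −0.23, so class medians this small have no settled sign. At 0.3 ng against 3 ng, 0 of 47 members were called, against 0.157% of genes, with 3 members at an unadjusted p under 0.05 (Psmc1, Psmc2 and Psmc3ip), against 10.7% of genes. The median log2 fold change of the members was −0.02, and 8 of 47 did not overlap, against 21.3% of genes.

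**Figure D4:**
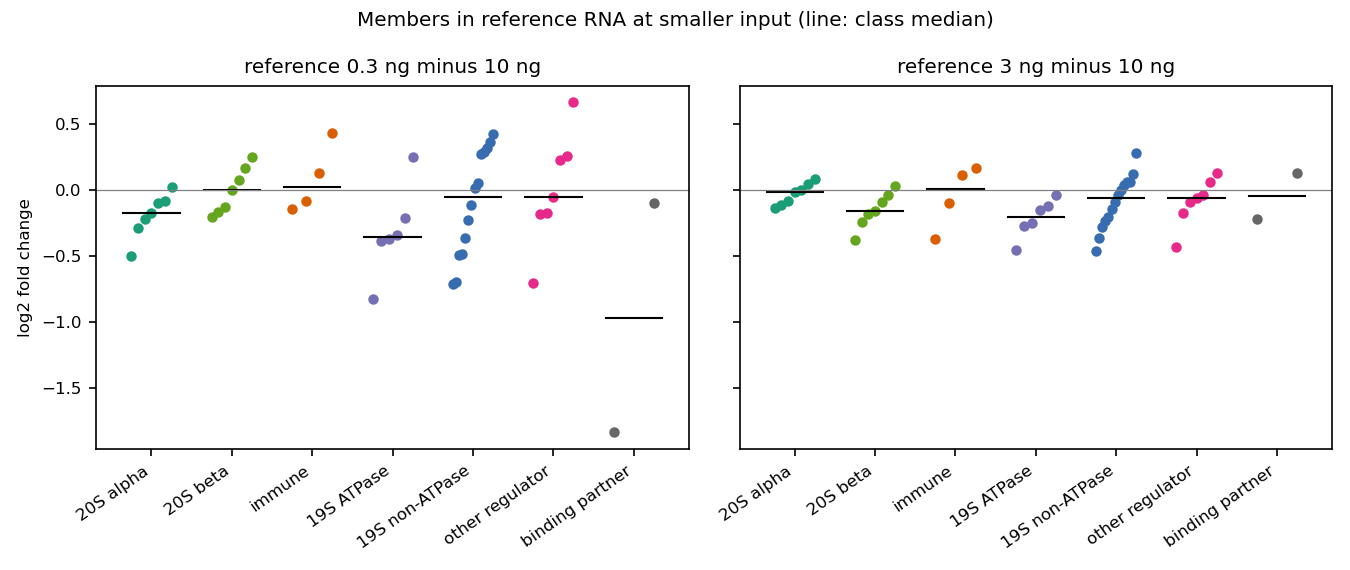
Log2 fold changes of the 47 tested members in reference RNA (vertical axis) at 0.3 ng minus 10 ng on the left and at 3 ng minus 10 ng on the right, by class, with the class median as a line. At 3 ng all members lie between −0.46 and 0.28, and at 0.3 ng Psmc3ip lies apart at −1.83; no member passed the adjusted threshold in either comparison.

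Some further probe sets of members lost most of their signal at 0.3 ng. The second brightest Psmc6 probe set had 168.4, 313.6 and 224.8 at 0.3 ng, against 1057.6, 2008.7 and 1345.6 at 3 ng and 1232.7, 894.1 and 1109.1 at 10 ng, while the brightest Psmc6 probe set had 3611.7, 3947.4 and 2866.5 at 0.3 ng, against 3865.7, 4879.7 and 3334.9 at 10 ng. For the second brightest one the log2 fold change between 0.3 and 10 ng was −2.21, which just missed the threshold (95% interval −2.98 to −1.44, adjusted p = 0.0538 by limma). A Psmd11 probe set other than the one that stood for it had 368.4, 577.0 and 85.8 at 0.3 ng, against 2186.9, 1204.4 and 1856.4 at 10 ng (−2.66, adjusted p = 0.184), and a Psmf1 probe set had 17.1, 119.6 and 31.6, against 276.0, 183.3 and 256.1 (−2.40, adjusted p = 0.192). None of the 3 overlapped between 0.3 and 10 ng. These 3 were picked after their values were seen.

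Replicate arrays agreed least at 0.3 ng. The median SD of the log2 signal over the 47 members was 0.09 in kidney RNA at 10 ng, and in reference RNA 0.34 at 0.3 ng, 0.16 at 3 ng and 0.11 at 10 ng. Over all 12767 tested genes it was 0.20 in kidney RNA, and 0.61, 0.27 and 0.21 in the reference at the same inputs. The members were brighter than the typical gene, and the part of signal level in their smaller spread was not tested. At 0.3 ng the SD of single members ran from 0.03 to 1.10, and 14 of 47 exceeded 0.5, against 1 at 3 ng and 0 at 10 ng. Each test assumes equal spread in its groups, which these values do not show for the lowest input.

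**Figure D5:**
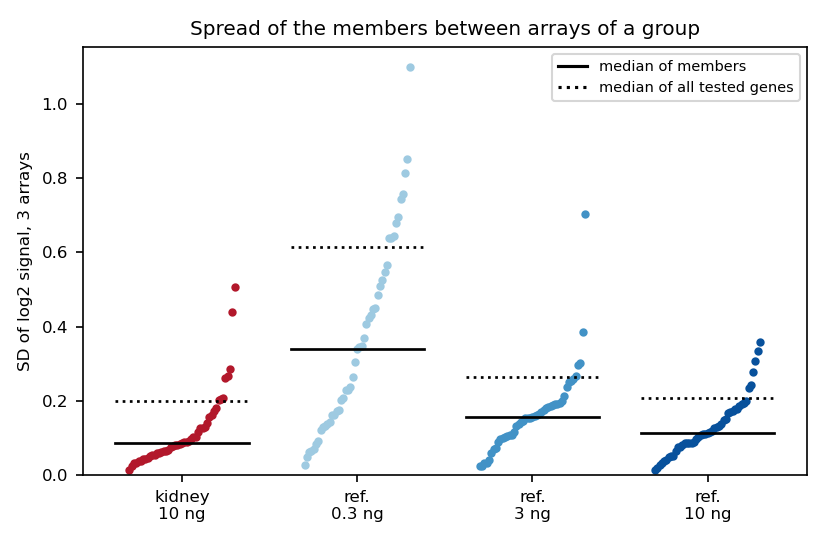
SD of the log2 signal among the 3 arrays of a group (vertical axis, from 0) for each of the 47 tested members (points), with the median of the members (solid line) and of all tested genes (dotted line), in kidney RNA at 10 ng and reference RNA at 0.3, 3 and 10 ng. The members' median is 0.34 at 0.3 ng, against 0.09 in kidney RNA and 0.11 in the reference at 10 ng.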

How the data were processed

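Mouse RNA was measured on 12 expression arrays. The deposited tables hold an intensity on a linear scale for every probe set. The values show that each array had been scaled to a 2% trimmed mean of 500. The method that summarised the probes is not stated in these sources. The array has 45101 probe sets, and its 64 controls were not tested; 34945 carried 1 symbol, 932 several and 9160 none. Values were used as deposited, and log2 values were formed with 3.9 added as pseudocount. Probe sets with a highest group mean above 72.67 (the 40th percentile) were tested, 27025 in all. A gene was represented by its own probe set with the highest mean log2 value, and gene counts are over these. All 49 members' gene IDs matched the RefSeq table of GRCm38.p6.

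Each comparison was fitted with limma 3.58.1 in R 4.3.3 on the 6 arrays of its 2 groups, two-sided, with Benjamini-Hochberg adjustment over all tested probe sets and a threshold of 0.05. The fit was tested on simulated data. Named members were the catalytic and immune subunits and, per class, at most 4 called members by size of change and the 2 smallest; genes outside the rule were added where a count or range needed them. Keeping Psmc3ip and Psme3ip1 apart was decided after the files were seen. The members and lists were chosen with earlier results of these data known. Alternatives were other pseudocounts, filters, scalings, fits and probe set choices, and leaving out each array.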

Additional observations from a re-analysis of the deposited data

How the results depend on the processing

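Between kidney and reference RNA at 10 ng, 4 members were called higher and 7 lower. Leaving out each array in turn gave 3 to 4 higher and 7 to 8 lower. The higher count became 8 with arrays centred on their medians, 7 with a trend in the prior variance and 2 against the reference at 0.3 ng; the lower count became 12 with quantile normalization, 16 with the trend, 11 with all probe sets of a gene averaged and 4 against the reference at 0.3 ng. Psmb9 and Psmb10 were called higher in all these fits at equal input, and Psmb8 in all but that on averaged probe sets. Psmc6 turned to 0.30 (adjusted p = 0.162) there, since its probe sets go opposite ways. Of the 14 constitutive 20S genes, with 0 calls as reported, the trend called Psma4 higher and Psma2, Psma3, Psma7, Psmb2, Psmb3 and Psmb6 lower. It also called Psmd11 and Psme1 higher and Psmd2, Psmd4 and Psmg4 lower. Quantile normalization called Psma2, Psma7 and Psmb2 lower, centring Psma4 higher, and averaging Psma1, Psma3, Psma6 and Psma7 lower. With the replicate number as a block, 3 members were called higher and 7 lower, Psmc5 being lost (adjusted p = 0.107). Arrays of the same number did not deviate together (correlations of −0.06 to 0.01 over the 4 comparisons). What the number stands for is not stated, and with 3 arrays a group this check cannot exclude a shared step. No input comparison called a member under any alternative, also with the replicate block (0 higher and 0 lower). Over all probe sets the higher calls were 6147 and the lower 10024, and with centring 7451 and 7789. The shifts of the catalytic pairs were 2.02 to 2.32 (Psmb9 and Psmb6), 0.81 to 1.07 (Psmb10 and Psmb7) and 1.41 to 1.56 (Psmb8 and Psmb5) without each array. With 3 arrays a group, the intervals of the members' log2 fold changes between 0.3 and 10 ng reached −3.02 and 1.58, which limits what the missing calls show.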
